A study of Mus musculus with 8 samples.

Results

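Galectin transcripts were followed in mouse embryonic stem (ES) cells of 4 *Tbxt* genotypes. The 6 genes, *Lgals1*, *Lgals3*, *Lgals4*, *Lgals7*, *Lgals8* and *Lgals9*, were taken by name from the 48440 genes counted in every library, and all 6 passed the filter on low counts that kept 17049 genes. They were listed with earlier results of the same libraries in view, so their levels and fold changes are given as a description and carry no p-value. Poly(A) RNA was sequenced after 1 day of differentiation in culture, in 2 libraries per genotype. MK6, a C57BL/6J ES cell line, is the parent of all 4, and all were taken through the same feeder-free differentiation, which ended with CHIR99021, an activator of Wnt signalling. Wild-type cells served as the control. *Tbxt* delE6/delE6 cells lack exon 6 of *Tbxt* on both alleles, and their 2 libraries come from different clones. *Tbxt* delE6/+ cells lack exon 6 on 1 allele. *Tbxt* Insert ASAY cells, written insASAY here, carry a human AluSx1 and AluY pair in the introns on either side of exon 6 on both alleles. Before differentiation the edited lines had different histories. Exon 6 was deleted in feeder-free cells under blasticidin. The Alu pair was inserted in cells on fibroblast feeders under puromycin, with Cre and ganciclovir used later to remove the selection cassette. This history cannot be told apart from the genotype. *Tbxt* encodes the T-box transcription factor Brachyury. The study calls the 2 libraries of each genotype biological replicates, without saying, except for delE6/delE6, what set them apart. Where nothing says how many clones stand behind a genotype, the genotype and the clone cannot be told apart, and the spread between its 2 libraries may be technical.

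Galectins are small lectins that bind β-galactoside sugars, above all N-acetyllactosamine, on glycoproteins and glycolipids. They are made in the cytosol without a signal peptide and reach the outside of the cell by a route that bypasses the Golgi, so they also act inside the cell, for example on lysosomes whose torn membranes expose sugars. They are grouped by their build. Prototype galectins (galectin-1 and galectin-7) have a single sugar-binding domain and can pair up, the chimera galectin-3 joins such a domain to a long flexible tail, and tandem-repeat galectins (galectin-4, galectin-8 and galectin-9) carry 2 different sugar-binding domains in 1 chain.

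The genes lie at 5 places on GRCm38 (GENCODE M21), and all are annotated as protein coding. *Lgals1* occupies chr15:78926725-78930465 and *Lgals3* chr14:47367751-47386160, both on the plus strand. *Lgals4* (chr7:28833854-28841708) and *Lgals7* (chr7:28863853-28866284) follow each other on the plus strand with 22144 bases between them. *Lgals8* (chr13:12439415-12464944) and *Lgals9* (chr11:78962974-78984946) are on the minus strand. Exons of *Lgals8* share 155 bases with *Heatr1* on the opposite strand, which the strand-specific count keeps apart. No other gene on the same strand shares exon bases with any of the 6.

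RefSeq promoter windows (GRCm38.p6) were matched by gene symbol for 5 of the 6 genes, all but *Lgals1*. The windows of *Lgals3* and *Lgals9*, whose transcripts were lowest in delE6/+ cells, are printed with that of *Lgals8*, whose transcript was not. Each gives, 5′ to 3′ on the strand of the gene, the 200 bases from 250 to 51 bases before the annotated start, with each CpG dinucleotide in capitals. They lie at chr14:47373610-47373809 (plus strand), chr11:78984975-78985174 (minus strand) and chr13:12461789-12461988 (minus strand), each outside the GENCODE exons of its own gene. The RefSeq starts of *Lgals3* and *Lgals8* fall inside the longer GENCODE genes.
Lgals3 promoter window: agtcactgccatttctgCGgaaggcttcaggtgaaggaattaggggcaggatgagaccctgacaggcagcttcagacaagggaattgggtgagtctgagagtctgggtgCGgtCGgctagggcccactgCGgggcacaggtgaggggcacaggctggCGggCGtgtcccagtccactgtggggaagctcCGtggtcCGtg
Lgals9 promoter window: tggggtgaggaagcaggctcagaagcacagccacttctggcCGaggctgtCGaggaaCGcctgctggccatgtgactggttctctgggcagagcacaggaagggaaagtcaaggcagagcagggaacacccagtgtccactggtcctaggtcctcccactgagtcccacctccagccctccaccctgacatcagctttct
Lgals8 promoter window: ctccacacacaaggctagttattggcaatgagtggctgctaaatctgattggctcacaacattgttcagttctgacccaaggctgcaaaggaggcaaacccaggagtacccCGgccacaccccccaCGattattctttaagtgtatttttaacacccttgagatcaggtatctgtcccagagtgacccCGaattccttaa
The *Lgals3* window held 8 CpGs at 62.5% G and C, the *Lgals9* window 3 CpGs at 60.5% and the *Lgals8* window 3 CpGs at 48.0%. The medians over the same window of 32851 promoters were 4 CpGs and 51.5%. *Lgals7* had 4 CpGs and *Lgals4* 1. The *Lgals7* window shares 107 of its 200 bases with GENCODE exons of *Lgals7*. For *Lgals4*, the bases just after the RefSeq start were in 0 of its GENCODE transcripts. Both strands of the 5 windows were searched for 4 motifs. The T-box recognition letters (GGTGTGA or TCACACC), found in 2.71% of all windows, were in 0 of the 5. The TATA box letters (TATAAA or TTTATA; 9.14% of all windows) and the AP-1 letters (TGANTCA; 5.57%) were also in 0 of the 5. A GC box (GGGCGG or CCGCCC; 24.6% of all windows) was in 1, that of *Lgals7*, 197 bases before the start, where it overlapped no other motif searched. These matches describe the letters of the windows only. The windows stop 51 bases before the start, so a TATA box or other motif nearer the start was not searched for.

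Reads on genes came to 24618587 to 28445952 per library. Reads opposite in strand to the first read were counted, since the other strand held 4.11% to 4.78% of the strand-assigned reads. Levels are given as CPM, the count relative to the library size as scaled by edgeR's TMM method. *Tbxt* itself had 47 and 42 reads in wild-type, 26 and 22 in delE6/delE6, 39 and 54 in delE6/+ and 30 and 29 in insASAY libraries. A count over the whole gene does not show whether exon 6 is present. Of 10 pluripotent ES cell markers, 10 were detected in every genotype, with summed levels of 985 to 1210 CPM. Single markers moved within that sum, with 4 called lower in delE6/delE6, 2 higher and 4 lower in delE6/+ and 2 lower in insASAY cells. In these lines 12.7%, 13.5% and 21.3% of all tested genes were called in either direction. Libraries of a genotype differed by more than sampling noise, and most between the 2 delE6/delE6 clones, with a chi-square per degree of freedom of 10.8 against 2.74 to 3.37 in the other genotypes.

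*Lgals1* was by far the most abundant galectin transcript. In wild-type cells its level per kilobase of exon was 457 CPM per kb, above 99.42% of the tested genes. *Lgals3* followed at 10.1 CPM per kb (above 70.75%) and *Lgals8* at 2.698 (above 42.41%). *Lgals7* stood at 1.36 CPM per kb, *Lgals9* at 1.00 and *Lgals4* at 0.632, the last above 20.56% of the tested genes. *Lgals1* made up 90.8% to 93.7% of the summed galectin CPM in every library. The sum was 427 and 466 CPM in wild-type, 410 and 453 in delE6/delE6, 374 and 383 in insASAY, and 197 and 217 in delE6/+ libraries. The delE6/+ libraries held the lowest sums, below the 6 others, and still held them when *Lgals1* was left out, at 18.2 and 16.7 CPM against 23.5 to 35.8 CPM in the 6 others.

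**Figure D1:**
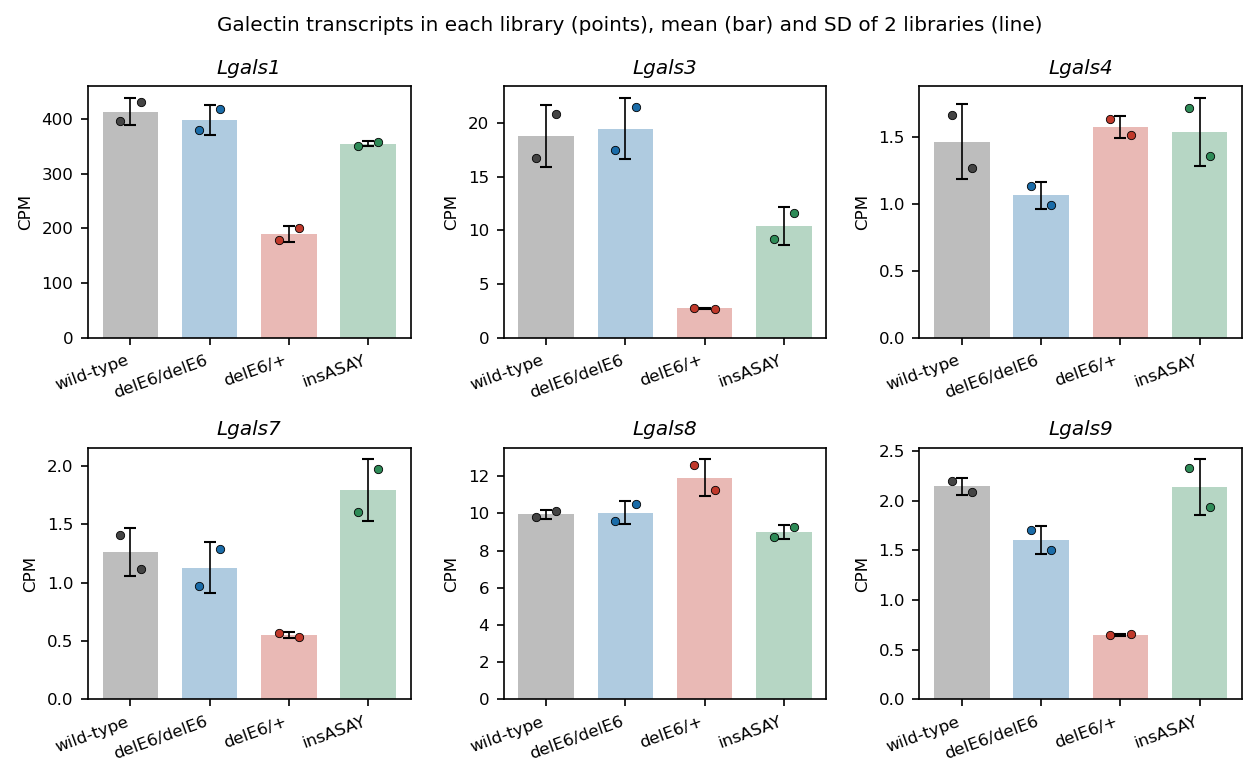
Level of each galectin transcript (vertical axis, CPM, its own scale for each gene) in the 4 genotypes. Points are the 2 libraries, bars the mean and lines the SD. The delE6/+ points of *Lgals1*, *Lgals3*, *Lgals7* and *Lgals9* lie below the points of every other genotype, at a mean of 189, 2.75, 0.550 and 0.649 CPM, while those of *Lgals8* lie above, at 11.9 CPM.

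Galectin-1, the prototype galectin, cross-links glycoproteins such as laminin and fibronectin in the matrix. *Lgals1* had 10947 and 11568 reads in the wild-type, 9353 and 11389 in the delE6/delE6, 4722 and 4893 in the delE6/+, and 9628 and 9762 in the insASAY libraries. These are 412.8 ± 25.0 CPM (SD, n = 2) in wild-type, 398.2 ± 27.6 in delE6/delE6, 189.4 ± 15.0 in delE6/+ and 354.0 ± 4.52 in insASAY cells. The wild-type and delE6/delE6 libraries overlapped. The insASAY libraries stood below both, and the delE6/+ libraries lowest. Against wild-type the level in delE6/+ cells was 45.9%, a log2 fold change of -1.12 (SE 0.0642), while that in insASAY cells was 85.8%, a log2 fold change of -0.22 (SE 0.0627). The log2 fold change of delE6/delE6 was -0.05 (SE 0.0626). Its 2 annotated pseudogenes, *Lgals1-ps1* and *Lgals1-ps2*, had 0 to 3 and 0 reads in the 8 libraries.

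Galectin-3, the chimera, forms lattices with branched N-glycans at the cell surface and gathers on damaged lysosomes. *Lgals3* had 463 and 559 reads in the wild-type, 431 and 586 in the delE6/delE6, 73 and 67 in the delE6/+, and 252 and 318 in the insASAY libraries. The levels were 18.8 ± 2.89 CPM (SD, n = 2) in wild-type, 19.5 ± 2.86 in delE6/delE6, 2.75 ± 0.0180 in delE6/+ and 10.4 ± 1.74 in insASAY cells. Wild-type and delE6/delE6 again overlapped, insASAY lay between, and delE6/+ lay lowest, with every library of one step clear of the next. The level in delE6/+ cells was 14.7% of wild-type (log2 fold change -2.77, SE 0.175), and between single libraries the ratio ran from 0.132 to 0.165. In insASAY cells it was 55.5% of wild-type (log2 fold change -0.85, SE 0.142), with library ratios from 0.441 to 0.696. From delE6/+ to insASAY the log2 difference was 1.92 (SE 0.186). *Lgals3* is the only one of the 6 genes found in the study's list of differentially expressed *Tbxt* target genes. The study took targets from an earlier publication, by *Tbxt* ChIP-seq peaks in differentiated mouse ES cells. It then kept those differentially expressed in these same samples, so absence from the list does not show that a gene is no target.

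The other prototype galectin and 2 of the tandem-repeat galectins were expressed at low levels. *Lgals7*, a gene of stratified epithelia that p53 can induce, had 39 and 30 reads in wild-type, 24 and 35 in delE6/delE6, 15 and 13 in delE6/+, and 44 and 54 in insASAY libraries. This gave 1.26 ± 0.206 CPM (SD, n = 2) in wild-type, 1.13 ± 0.221 in delE6/delE6, 0.550 ± 0.0259 in delE6/+ and 1.79 ± 0.264 in insASAY cells. Its log2 fold change against wild-type was -1.19 (SE 0.310) in delE6/+ and 0.50 (SE 0.244) in insASAY cells, and the difference between these 2 lines, 1.69 (SE 0.291), was larger than either. *Lgals9*, whose protein is a ligand of the immune receptor Tim-3, had 61 and 56 reads in wild-type, 42 and 41 in delE6/delE6, 17 and 16 in delE6/+, and 64 and 53 in insASAY libraries. Its level was 2.14 ± 0.0831 CPM in wild-type, 1.60 ± 0.139 in delE6/delE6, 0.649 ± 0.00728 in delE6/+ and 2.14 ± 0.278 in insASAY cells. Wild-type and insASAY libraries overlapped, those of delE6/delE6 lay below them at 74.6% of wild-type (log2 fold change -0.42, SE 0.211), and those of delE6/+ at 30.4% (log2 fold change -1.72, SE 0.252). *Lgals4*, a gene of the gut epithelium, had 27 to 47 reads in any library. Its delE6/delE6 level of 1.06 ± 0.101 CPM lay below the other genotypes (log2 fold change -0.47 against wild-type, SE 0.260). Its levels of 1.57 ± 0.0819 CPM in delE6/+, 1.53 ± 0.254 in insASAY and 1.46 ± 0.279 in wild-type cells overlapped between neighbours in that order.

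Galectin-8, the tandem-repeat galectin that marks torn vesicles for autophagy, had the narrowest span of the 6 across the genotypes. *Lgals8* had 271 and 272 reads in wild-type, 237 and 286 in delE6/delE6, 333 and 275 in delE6/+, and 239 and 253 in insASAY libraries. The delE6/+ libraries were the highest, at 12.6 and 11.2 CPM against 9.95 ± 0.242 CPM (SD, n = 2) in wild-type cells, and the insASAY libraries the lowest, at 8.98 ± 0.388 CPM. Relative to wild-type, its log2 fold change was 0.26 (SE 0.108) in delE6/+, 0.01 (SE 0.110) in delE6/delE6 and -0.15 (SE 0.111) in insASAY cells. The genotype means of *Lgals8* spanned 0.40 on the log2 CPM scale, against 2.78 for *Lgals3*, 1.61 for *Lgals9*, 1.57 for *Lgals7*, 1.12 for *Lgals1* and 0.53 for *Lgals4*.

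**Figure D2:**
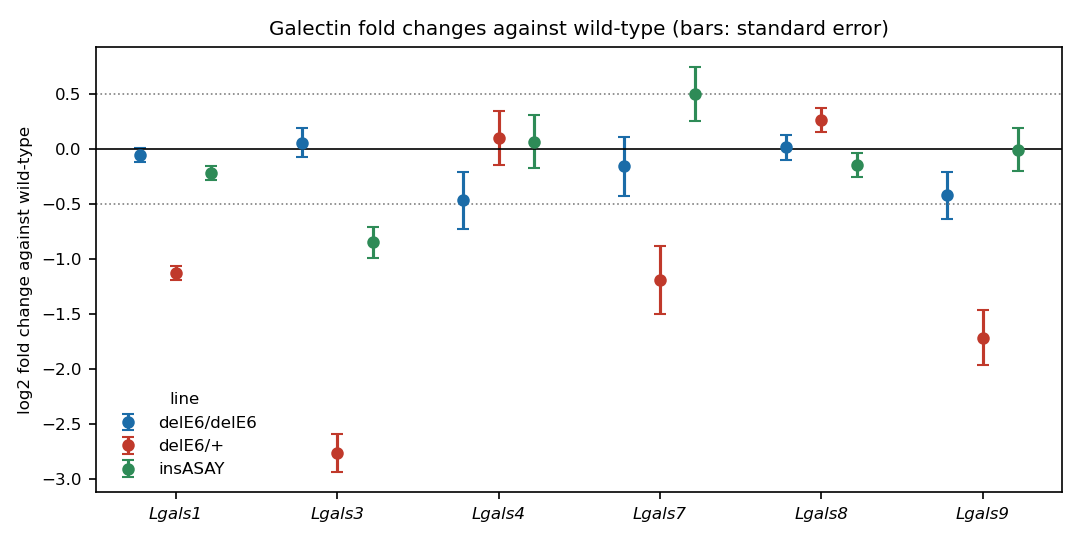
Log2 fold change of each galectin gene against wild-type (vertical axis) in delE6/delE6, delE6/+ and insASAY cells. Points are edgeR estimates, bars their standard error, and dotted lines the fold threshold of 0.5 in either direction. The delE6/+ points of *Lgals3* (-2.77), *Lgals9* (-1.72), *Lgals7* (-1.19) and *Lgals1* (-1.12) lie below the lower line, and *Lgals3* lies below it in insASAY cells too (-0.85).

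Genes were called at an adjusted p under 0.05 in edgeR's quasi-likelihood test (Benjamini-Hochberg adjustment over 17049 genes) and a log2 fold change past 0.5. Nothing is read from the members' counts, because the same comparisons were known when the genes were listed. In delE6/delE6 against wild-type, 0 of the 6 passed both thresholds (0 at an unadjusted p under 0.05, and 0 by DESeq2), where 12.7% of all tested genes did. In delE6/+ against wild-type, *Lgals1*, *Lgals3*, *Lgals7* and *Lgals9* passed, 4 of 6 and all lower, where 6.89% of tested genes were called lower. *Lgals7* did not pass with DESeq2, without wild-type replicate 1 (log2 fold change -1.02), or without either delE6/+ library. In insASAY against wild-type only *Lgals3* of the 6 passed, lower, against 9.85% of tested genes. The median log2 fold change of the 6 was -0.10 in delE6/delE6, -1.16 in delE6/+ and -0.08 in insASAY cells, where the medians of all tested genes were -0.0096, -0.00059 and -0.0051. Both delE6/+ libraries lay below both wild-type libraries for 4 of the 6 genes and above them for 1, where 34.9% and 34.4% of tested genes did. The 3 comparisons share the wild-type libraries.

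The same 4 genes were also lower in delE6/+ cells than in the other mutant lines. This too is a description, since the genes were listed with earlier results of these libraries known. Against delE6/delE6, the delE6/+ log2 fold changes were -2.82 (SE 0.175) for *Lgals3*, -1.30 (SE 0.267) for *Lgals9*, -1.07 (SE 0.0642) for *Lgals1* and -1.04 (SE 0.319) for *Lgals7*. These 4 passed both thresholds, with a background of 11% of tested genes called lower. *Lgals7* did not pass with DESeq2, without delE6/delE6 replicate 2 (log2 fold change -0.82) or without either delE6/+ library. *Lgals4* and *Lgals8* did not pass, at 0.57 (SE 0.260) and 0.25 (SE 0.109). Between insASAY and delE6/+ cells, the same 4 genes were past both thresholds and higher in insASAY, against a background of 14.6% of tested genes called higher, with log2 fold changes of 1.92 for *Lgals3*, 1.71 for *Lgals9*, 1.69 for *Lgals7* and 0.90 for *Lgals1*. *Lgals8* was at -0.41 (SE 0.109) in this comparison. Between insASAY and delE6/delE6 cells only *Lgals3* of the 6 passed, at -0.91 (SE 0.142), against a background of 2.38% of tested genes called lower.

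In bulk RNA, fewer cells of a type and less RNA per cell cannot be told apart. Fibroblasts and macrophages are rich in galectin-1 and galectin-3, so their markers are given beside these levels. The summed level of 12 embryonic fibroblast markers was 64.7 and 70.4 CPM in wild-type, 70.9 and 70.5 in delE6/+, 46.7 and 42.1 in delE6/delE6, and 36.8 and 38.5 in insASAY libraries. Of the 8 fibroblast markers tested in delE6/+ cells, 2 were called higher and 1 lower. The share of all tested genes called in delE6/+ cells, for this and the other marker lists, was 13.5% in either direction (6.89% lower). The summed level of 8 macrophage markers was 45.6 and 49.0 CPM in wild-type, 44.7 and 45.3 in delE6/delE6, 29.5 and 30.4 in delE6/+, and 26.3 and 31.6 in insASAY libraries. Nearly all of it was *Cd68*, a lysosomal protein gene, at a mean of 46.7 CPM in wild-type and 29.6 CPM in delE6/+ cells. Of the other 7 macrophage genes, all too low to test, *Ptprc*, *Adgre1* and *Lyz2* had at most 1 read in any library and *Tyrobp* at most 2. *Csf1r* had 10 and 4 reads in wild-type and 2 and 2 in delE6/+ libraries, *Aif1* 4 and 3 against 2 and 0, and *Fcer1g* 2 and 6 against 1 and 7. Summed primitive endoderm markers ran from 356 CPM in insASAY to 617 CPM in wild-type libraries, with 536 and 600 CPM in delE6/+ libraries. Most of this sum was *Lamb1* and *Col4a1*, at means of 449 and 127 CPM in wild-type and 396 and 150 CPM in delE6/+ cells. Of 10 primitive endoderm markers tested, 2 were called higher in delE6/+ cells and 0 lower. These were *Dab2* (log2 fold change 1.00) and *Foxa2* (1.47, from 10 and 5 reads to 16 and 23). Summed trophectoderm markers were 59.0 and 61.9 CPM in wild-type, 58.3 and 52.9 in delE6/delE6, 47.3 and 48.9 in delE6/+, and 47.0 and 50.02 in insASAY libraries. Of 9 tested, 1 was called higher in delE6/+ cells (*Cdx2*, log2 fold change 3.06, from 3 and 9 reads to 54 and 41) and 2 lower (*Eomes* at -0.95 and *Hand1* at -0.64). The pluripotent ES cell markers called in delE6/+ cells were *Tdgf1* (-2.26), *Nanog* (-0.80), *Pou5f1* (-0.68) and *Utf1* (-0.52), all lower, and *Lin28a* (0.81) and *Sox2* (0.72), both higher. The part of these markers in the galectin levels was not tested.

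The genes whose pattern came nearest to *Lgals1* and *Lgals3* were sought among 12836 genes that averaged 2 CPM or more, by the root mean square difference of mean-centred log2 CPM over the 8 libraries. The nearest to *Lgals1* were *Trim7* (0.0471), *Emp3* (0.0676), a small membrane protein gene, and *Mbnl2* (0.0769), a splicing regulator. *Mbnl2* had 104.9 ± 7.82 CPM (SD, n = 2) in wild-type and 49.0 ± 4.04 in delE6/+ cells. The 2 nearer genes had low levels. *Trim7* had 2.69 ± 0.0325 CPM in wild-type and 1.22 ± 0.0660 in delE6/+ cells, and *Emp3* 5.87 ± 0.853 and 2.62 ± 0.0580. The nearest to *Lgals3* were *Plaur* (0.223), the urokinase receptor, *Sfn* (0.327), the 14-3-3 sigma protein, and *Ltb* (0.368), lymphotoxin beta. *Plaur* had 67.8 ± 3.23 CPM in wild-type, 87.2 ± 7.60 in delE6/delE6, 13.7 ± 1.10 in delE6/+ and 56.1 ± 7.45 in insASAY cells. The difference between *Lgals1* and *Lgals3* themselves was 0.688, so neither was among the nearest genes of the other. This likeness is a description over 8 libraries of 4 genotypes.

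**Figure D3:**
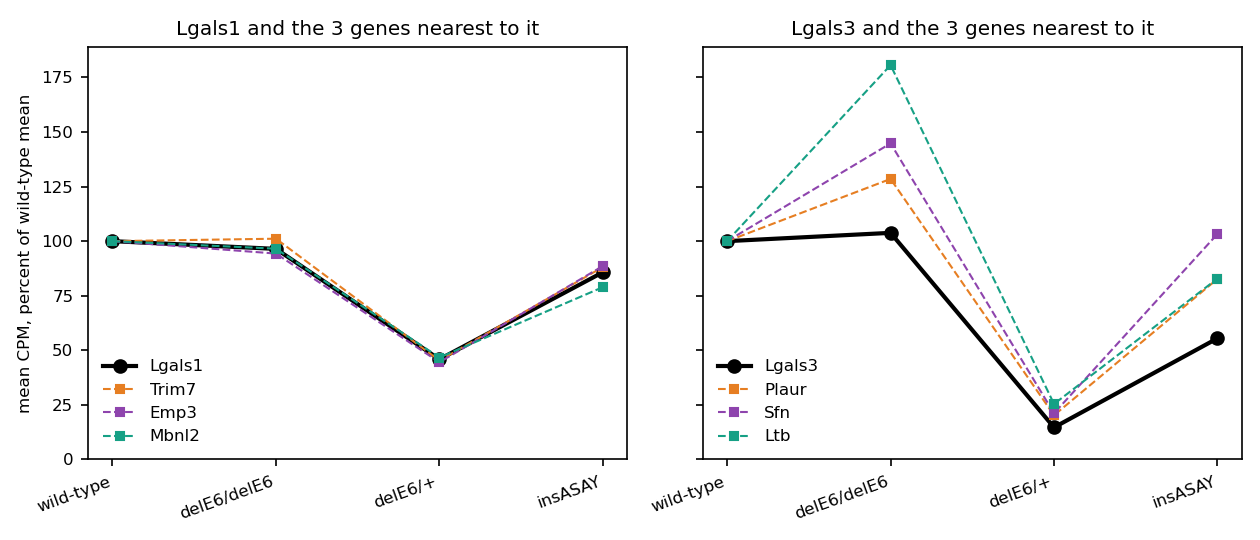
Mean level in each genotype as a percent of the wild-type mean (vertical axis) for *Lgals1* (left) and *Lgals3* (right), with the 3 genes nearest to each. The genes nearest to *Lgals1* run close to it in all genotypes. Those of *Lgals3* share its low delE6/+ level, where *Lgals3* stands at 14.7%, but lie above it in delE6/delE6 and insASAY cells.

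None of the genes next to the 6 loci was called in delE6/+ cells. The nearest tested gene on each side of each locus and the overlapping *Heatr1* make 11 genes. In delE6/+ against wild-type, 0 of the 11 were called by edgeR's quasi-likelihood test (4 at an unadjusted p under 0.05) and 0 by DESeq2, with a background of 13.5% of tested genes. *Dlgap5*, a mitotic spindle gene 1618 bases from *Lgals3*, had a log2 fold change of -0.08 (SE 0.0563; edgeR, Benjamini-Hochberg adjusted p = 0.332), and *Mapk1ip1l* on its other side -0.15 (SE 0.0709; edgeR adjusted p = 0.124). Beside *Lgals1*, *Nol12* stood at -0.07 (edgeR adjusted p = 0.56) and *Sh3bp1* at -0.09 (edgeR adjusted p = 0.299). *Nos2*, 2719 bases from *Lgals9*, had a log2 fold change of -1.67 (SE 0.675; edgeR adjusted p = 0.0782) from a wild-type level of 0.383 CPM. Also past the fold threshold but not called were *Capn12* and *Edaradd*. *Capn12*, next to *Lgals7*, was at -0.57 (SE 0.281; edgeR adjusted p = 0.149) from 1.34 CPM. *Edaradd*, next to *Lgals8*, was at 1.02 (SE 0.450; edgeR adjusted p = 0.104) from 0.404 CPM. *Heatr1*, antisense to *Lgals8*, was at 0.28 (SE 0.0455; edgeR adjusted p = 0.000417), below the fold threshold. The count of 0 became 1 with no filter on low counts, without either delE6/delE6 library and without delE6/+ replicate 2. In delE6/delE6 cells 0 of the 11 were called (7 at an unadjusted p under 0.05, 0 by DESeq2), and 2 without delE6/delE6 replicate 1. In insASAY cells 2 of the 11 were called, *Sh3bp1* lower at -0.55 (edgeR adjusted p = 1.76e-05) and *Capn12*, next to *Lgals7*, higher at 0.94 (edgeR adjusted p = 0.00481), against a background of 21.3%, and 1 with unstranded counts or without wild-type replicate 1.

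Of the other galectin-fold and partner genes, *Lgals2* (3 to 12 reads per library) and *Grifin* (0 to 5) were too low to test. *Lgalsl*, which encodes a galectin-like protein, was expressed at 23.4 ± 1.00 CPM (SD, n = 2) in wild-type cells, where *Lgals3* had 18.8 CPM. These 2 levels are not corrected for gene length. *Lgalsl* had a log2 fold change of -0.18 (SE 0.0792) in delE6/+ cells (edgeR's quasi-likelihood test, adjusted p = 0.109). *Lgals12*, a gene of fat cells, stood at 0.222 ± 0.160 CPM in wild-type and 0.537 ± 0.224 in delE6/+ cells (log2 fold change 1.26, SE 0.531, edgeR adjusted p = 0.0908). *Lgals3bp* encodes a secreted glycoprotein that binds galectin-1 and galectin-3. It fell in delE6/+ cells, from 1.48 and 1.45 CPM in wild-type to 0.719 and 0.899 CPM (log2 fold change -0.86, SE 0.295, edgeR adjusted p = 0.0412). This call was lost with DESeq2 and without any 1 of the 4 libraries compared. In delE6/delE6 and insASAY cells *Lgals3bp* had log2 fold changes of -0.0017 and -0.14 (edgeR adjusted p = 0.997 and 0.7).

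Genes that make, carry or act with galectin ligands were taken from 5 lists of 78 genes, of which 77 were found and 70 tested. Of the 70, 5 rose and 6 fell in delE6/delE6, 1 rose and 9 fell in delE6/+, and 7 rose and 12 fell in insASAY cells against wild-type. The median log2 fold changes of the 70 were 0.03, -0.10 and -0.08. These are 15.7%, 14.3% and 27.1% of the tested genes of the lists, where 12.7%, 13.5% and 21.3% of all tested genes were called. Without delE6/delE6 replicate 2, the delE6/delE6 count was 6 in place of 11.

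N-glycan branching enzymes and the enzymes that build N-acetyllactosamine make the sugars to which galectins bind. Of 19 tested, 0 rose and 2 fell in delE6/+ cells (median log2 fold change -0.14). Both were galactosyltransferases of lactosamine and related glycans. *B4galt5* fell from 37.8 and 40.4 CPM in wild-type to 26.2 and 23.6 CPM (log2 fold change -0.65, SE 0.0791, edgeR's quasi-likelihood test, adjusted p = 4.72e-05), and *B4galt3* from 63.1 and 64.2 to 39.1 and 42.5 CPM (-0.64, SE 0.0629, edgeR adjusted p = 7.78e-06). In delE6/delE6 cells 1 rose and 1 fell, and in insASAY cells 2 rose and 1 fell. The share of all tested genes called in either direction was 13.5% in delE6/+ (6.89% lower), 12.7% in delE6/delE6 and 21.3% in insASAY cells. *Mgat2*, the enzyme that starts the second antenna of complex N-glycans, rose from 24.4 ± 0.814 CPM (n = 2) to 40.7 ± 5.24 in delE6/delE6 (log2 fold change 0.74, SE 0.0857, edgeR adjusted p = 9.87e-05) and to 47.5 ± 0.529 in insASAY cells (0.96, SE 0.0848, edgeR adjusted p = 4.41e-06). *B3gnt3*, a lactosamine-extending enzyme, fell in both (-0.99 in delE6/delE6, edgeR adjusted p = 0.0455, and -0.94 in insASAY, edgeR adjusted p = 0.0412), and *B3gnt9* rose in insASAY cells (0.80, edgeR adjusted p = 0.0249). The *B3gnt3* and *B3gnt9* calls rest on levels under 2 CPM. The *B3gnt3* calls were lost with DESeq2 and without any 1 of the libraries compared (in delE6/delE6 also without either insASAY library), and the *B3gnt9* call with DESeq2, with unstranded counts, and without either wild-type library or insASAY replicate 2.

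Among 12 tested enzymes of sialylation, which caps galactose, and of O-glycan cores and branches, 0 rose and 2 fell in delE6/+, 2 rose and 0 fell in delE6/delE6, and 2 rose and 1 fell in insASAY cells. Over all tested genes, 13.5% were called in either direction in delE6/+ (6.89% lower), 12.7% in delE6/delE6 and 21.3% in insASAY cells. *Gcnt2*, which branches lactosamine chains into the I antigen, fell in delE6/+ cells from 44.8 and 44.0 CPM to 26.6 and 26.4 CPM (log2 fold change -0.74, SE 0.0719, edgeR's quasi-likelihood test, adjusted p = 7.1e-06). *Gcnt4*, an O-glycan branching enzyme, was called in all 3 lines, with log2 fold changes of -1.20 in delE6/+ (edgeR adjusted p = 0.0133), 0.91 in delE6/delE6 (edgeR adjusted p = 0.013) and 0.69 in insASAY cells (edgeR adjusted p = 0.0388). Its calls were lost without wild-type replicate 2 or delE6/+ replicate 1 for delE6/+, with DESeq2 and without wild-type replicate 1 or delE6/delE6 replicate 2 for delE6/delE6, and with DESeq2 and without any 1 of the 4 libraries compared for insASAY. *C1galt1c1*, the chaperone of the core 1 galactosyltransferase, rose in delE6/delE6 (0.68, SE 0.150, edgeR adjusted p = 0.00404, lost without delE6/delE6 replicate 2) and insASAY cells (0.76, SE 0.148, edgeR adjusted p = 0.00103). *Gcnt1*, the core 2 branching enzyme whose products carry galectin-1 ligands, fell in insASAY cells from 17.6 and 17.4 to 10.8 and 11.0 CPM (-0.69, SE 0.140, edgeR adjusted p = 0.0014).

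Of 18 tested glycoproteins known to bind galectins, 1 rose and 9 fell in insASAY cells (median log2 fold change -0.50), where 9.85% of all tested genes fell. In delE6/delE6 cells 0 rose and 5 fell (median -0.20), and in delE6/+ cells 1 rose and 2 fell (median -0.04). Of all tested genes, 12.7% were called in either direction in delE6/delE6 and 13.5% in delE6/+ cells. Whether the glycoprotein counts differ between the lines was not tested. Fibronectin (*Fn1*) fell from 1226 ± 30.4 CPM (SD, n = 2) in wild-type to 682.8 ± 106 in delE6/delE6 (log2 fold change -0.84, SE 0.0752, edgeR's quasi-likelihood test, adjusted p = 2.28e-05) and 538.4 ± 14.4 in insASAY cells (-1.19, SE 0.0758, edgeR adjusted p = 9.68e-07). The laminin chain gene *Lamc1* fell in both as well, with log2 fold changes of -0.68 (SE 0.0804, edgeR adjusted p = 0.00011) and -1.10 (SE 0.0811, edgeR adjusted p = 1.87e-06). The summed markers of fibroblasts and of primitive endoderm, cells that also make these matrix proteins, were lower in the same 2 lines, and 7 of 8 tested fibroblast markers were called lower in insASAY cells. *Lamb1* stands in both the primitive endoderm and the glycoprotein list. With *Col4a1*, another matrix gene, it made up most of the primitive endoderm sum. *Lamb1* had means of 449 CPM in wild-type, 305 in delE6/delE6 and 251 in insASAY cells, and *Col4a1* 127, 96.7 and 94.3 CPM. Of the 10 primitive endoderm markers, 2 were called lower in delE6/delE6, 1 in insASAY cells and 0 higher in either. The fibroblast sum was largest in *Mmp2* (33.2, 20.2 and 18.8 CPM). The part of these markers was not tested. The transferrin receptor gene *Tfrc* rose in insASAY cells (0.59, SE 0.0983, edgeR adjusted p = 0.000335). In delE6/+ cells *Itga5*, the fibronectin receptor chain, fell from 197.9 and 213.0 to 115.6 and 124.8 CPM (-0.77, SE 0.0534, edgeR adjusted p = 4.52e-07). *Mcam*, a cell adhesion gene, fell (-0.62, SE 0.0872, edgeR adjusted p = 0.000143), and *Lama1*, another laminin chain, rose (0.76, SE 0.115, edgeR adjusted p = 0.000253). *Itga5* and *Mcam* were also called lower in insASAY cells, at -0.70 (SE 0.0531, edgeR adjusted p = 2.01e-06) and -0.76 (SE 0.0874, edgeR adjusted p = 2.38e-05).

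**Figure D4:**
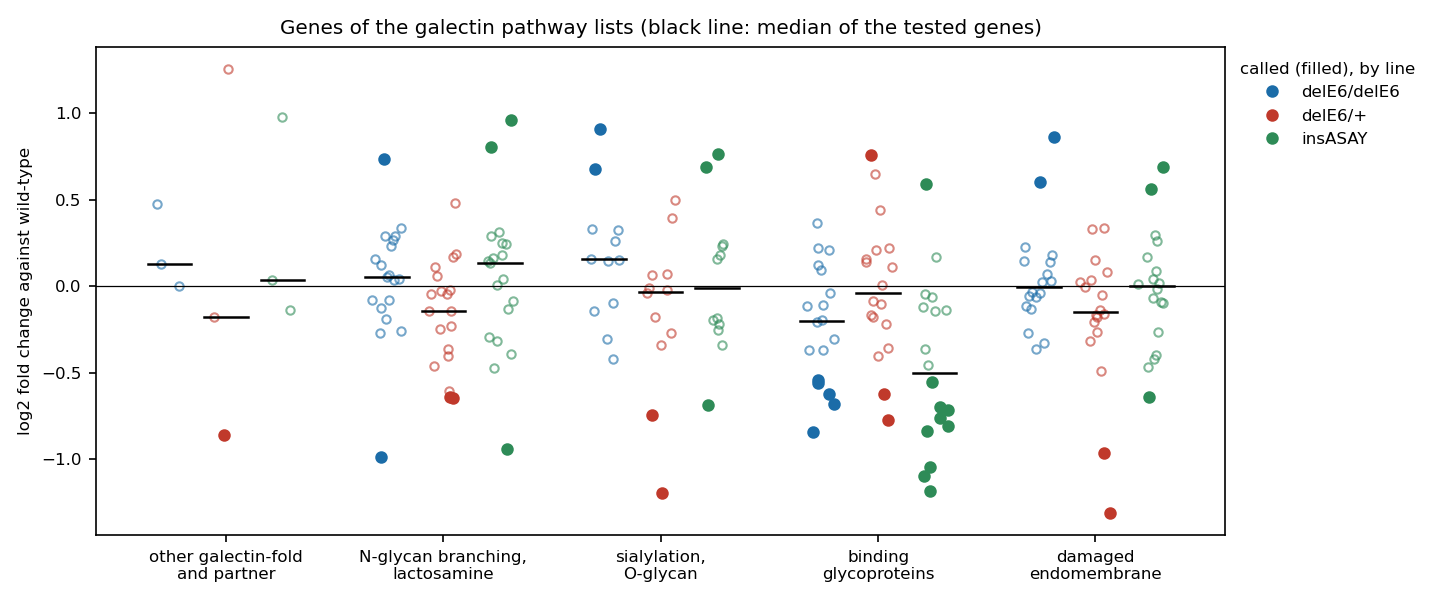
Log2 fold change against wild-type (vertical axis) of the 70 tested genes of the 5 lists, in delE6/delE6, delE6/+ and insASAY cells. Filled points were called, open points were not, and black lines are medians. In insASAY cells 9 of 18 glycoprotein genes are called lower, with a median of -0.50.

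Galectins that meet sugars inside torn vesicles work with the endomembrane damage response. Of 18 tested genes of this response, 0 rose and 2 fell in delE6/+, 2 rose and 0 fell in delE6/delE6, and 2 rose and 1 fell in insASAY cells. The background over all tested genes, in either direction, was 13.5% in delE6/+ (6.89% lower), 12.7% in delE6/delE6 and 21.3% in insASAY cells. *Sqstm1*, the autophagy receptor p62, fell in delE6/+ cells from 691.8 and 674.5 CPM to 342.5 and 356.4 CPM (log2 fold change -0.97, SE 0.0494, edgeR's quasi-likelihood test, adjusted p = 4.62e-08). *Fbxo2*, a sugar-recognizing ubiquitin ligase subunit, fell from 13.8 and 16.7 to 5.75 and 6.54 CPM (-1.31, SE 0.139, edgeR adjusted p = 1.46e-05). *Tsg101*, of the ESCRT machinery that mends membranes, rose in delE6/delE6 (0.60, SE 0.0652, edgeR adjusted p = 6.69e-05) and insASAY cells (0.56, SE 0.0652, edgeR adjusted p = 2.51e-05). *Trim16*, a partner of galectin-3 in lysosomal autophagy, rose in the same lines (0.86, edgeR adjusted p = 0.00715, and 0.69, edgeR adjusted p = 0.0176). The *Trim16* calls were lost without wild-type replicate 1 or delE6/delE6 replicate 2 in the first line, and with DESeq2 and without either wild-type library or insASAY replicate 2 in the second. The lysosomal protease gene *Ctsb* fell in insASAY cells (-0.64, SE 0.0488, edgeR adjusted p = 2.01e-06).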

How the data were processed

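Poly(A) RNA of 8 libraries (4 genotypes, 2 libraries each) was read with a strand-keeping kit. The authors aligned the reads to mm10 with STAR 2.7.2a and deposited raw counts per gene, of which the opposite-strand column (the sense strand in this kit) was used here. Gene IDs were named with GENCODE M21, which matched 48058 of 48440 IDs.

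The fit was made with edgeR 4.0.16 under R 4.3.3 (TMM scaling, filterByExpr at its defaults of 10 for the count and 15 for the total, and 1 quasi-likelihood fit over the 8 libraries), with Benjamini-Hochberg adjustment over 17049 genes. Calls needed a log2 fold change past 0.5 at an adjusted p under 0.05, as the authors set for DESeq2 1.40.2. Each of 6 pairs of genotypes was compared. The steps were tested on simulated counts. Depth limits the low genes most, since *Lgals4*, *Lgals7* and *Lgals9* rest on 13 to 64 reads per library.

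The members and the pathway and marker lists were chosen with earlier results of these data known. All members and tested other galectin genes are named, and of each other pathway list the 2 called genes that rose most and the 2 that fell most, where there were any, per line against wild-type. Neighbouring genes, and marker genes given beside a result, were named after their values were seen. The alternatives were DESeq2 1.42.0, its size factors, other filters, unstranded counts, a fit of 2 genotypes, a replicate block and leaving out each library. Running them on single pathway genes and neighbours was chosen after seeing the data. Isoforms were not analysed here.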

Additional observations from a re-analysis of the deposited data

How the results depend on the processing

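Of the 14 comparisons in which a galectin gene passed both thresholds, 12 passed under all 15 alternatives, and none of the 22 others passed under any. The exceptions were the 2 *Lgals7* comparisons named above. All alternatives re-use the same libraries and the same listed genes, so they show only how the calls depend on the processing. Counts of galectin genes called stayed within 1.5 times in 90 of 90 values. Leaving out 1 library gave 0 to 0 of the 6 galectin genes in delE6/delE6, 3 to 4 in delE6/+ and 1 to 1 in insASAY cells against wild-type, 3 to 4 for delE6/+ and 1 to 1 for insASAY against delE6/delE6, and 4 to 4 for insASAY against delE6/+. For the pathway genes it gave 6 to 14, 8 to 13, 15 to 19, 14 to 19, 2 to 8 and 17 to 22 in the same order. The 6 came without delE6/delE6 replicate 2 in place of 11, and the 8 without the same library in place of 3. Of the counts over all genes, delE6/delE6 against wild-type gave 2167 calls, 3388 without delE6/delE6 replicate 1 and 1149 without replicate 2. The count for insASAY against delE6/delE6 was 880, with 575 by DESeq2, 572 in a fit of 2 genotypes, 1529 without delE6/delE6 replicate 2 and 358 without insASAY replicate 1. With unstranded counts the delE6/+ log2 fold change of *Lgals9* was -1.57. Some values near 0 changed sign. Among the galectin genes, 8 comparisons took both signs over the alternatives, 0 of them past both thresholds: in delE6/delE6 against wild-type *Lgals1* (-0.12 to 0.02), *Lgals3* (-0.10 to 0.22), *Lgals7* (-0.38 to 0.03) and *Lgals8* (-0.05 to 0.08), *Lgals9* in insASAY against wild-type (-0.14 to 0.12), and *Lgals4* in delE6/+ (-0.08 to 0.31) and insASAY (-0.12 to 0.27) against wild-type and between those lines (-0.21 to 0.12). *Lgals3bp* in delE6/delE6 cells (-0.0017) became 0.0093 by DESeq2, 0.0070 with its size factors, 0.0040 with no filter, 0.00082 with a replicate block, 0.013 without wild-type replicate 1, and ran from -0.11 to 0.11 (without delE6/delE6 replicate 2) as each library was left out. In insASAY cells it ran from -0.51 to 0.16 (without insASAY replicate 2). *Lgals12* in delE6/delE6 cells became -0.12 without wild-type replicate 1, and *Lgalsl* in insASAY cells ran from -0.0070 (without wild-type replicate 1) to 0.079. The cause of these changes was not tested.

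Replicate numbers are shared between genotypes, but the differences between replicates correlated by -0.100 to 0.0672 over 12837 genes, so the numbers were not taken as pairs. With the replicate number as a block, galectin calls stayed at 0, 4 and 1 against wild-type, pathway calls at 11, 10 and 19, and calls over all genes moved from 2299 to 2255 in delE6/+ cells. The largest move of a galectin log2 fold change was 0.0103.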
